A study of Mus musculus with 25 samples.

Results

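Fatty acid oxidation was followed here through 34 genes of the carnitine shuttle, the mitochondrial pathway and the peroxisomal pathway. They were taken from a list of names with no threshold on their values, though the list was drawn up with earlier results of these data known, and all 34 were found as 1 row each among the 54752 genes in the count files. RNA had been sequenced from 25 pieces of white adipose tissue of male mice, 14 of epididymal (eWAT) and 11 of inguinal (iWAT) fat. The groups were wild type (WT) mice on a normal diet (ND; 4 eWAT and 3 iWAT libraries), WT mice on a high-fat diet (HFD; 5 and 5) and Acod1-/- mice on the HFD (5 and 3). The Acod1-/- animals carry a deletion in every cell of the gene for the enzyme that makes itaconate, and no Acod1-/- mice on the ND were among the libraries. Fat supplied 60% of the calories of the HFD, which began at 5 weeks of age. Its duration is given as 16 weeks, except for iWAT libraries 2 and 3 of Acod1-/- mice, whose labels say 17 and 18 weeks.

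Fatty acids enter the mitochondrion as carnitine esters. CPT1, in the outer membrane, makes the ester and is the step that malonyl-CoA blocks, the translocase Slc25a20 carries it across the inner membrane, and Cpt2 turns it back into an acyl-CoA. Inside, an acyl-CoA dehydrogenase chosen by chain length opens each round, the electron transfer flavoprotein takes the electrons to the respiratory chain, and hydration, a second oxidation and thiolysis release acetyl-CoA. Unsaturated chains need auxiliary isomerases and reductases. Peroxisomes take in very long and branched acyl-CoAs through ABC transporters and shorten them with their own oxidases, bifunctional enzymes and thiolases. In white fat these enzymes act beside the storage and release of triglyceride, and they are abundant in brown adipocytes.

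Reads assigned to genes numbered 31.41 to 52.34 M in a library. Levels are given as CPM, counts scaled to the library's total, after TMM scaling of all 25 libraries together. Levels of different genes are compared only as FPKM computed here, which divide these CPM by cDNA length. The libraries fall into 2 series by the numbering in their headers, and what sets the series apart is not given in the sources used here. Every ND library is in series 2 with 1 library of each HFD group, so diet and series can hardly be told apart, while genotype can be examined within series 1. Acod1 itself had 0 to 9 counts per library and does not check the genotype. Some libraries stood apart by markers of other tissues. Summed epididymis markers reached 8801 CPM in the second ND eWAT library and 1231 in the fifth Acod1-/- eWAT library, skeletal muscle markers 8783 CPM in the first ND iWAT library, and epithelial markers 534 CPM in the second Acod1-/- iWAT library. These 4 libraries were left out together as an added alternative. Adipocyte markers were abundant in every library, at 20435 to 53622 summed CPM. In bulk tissue fewer cells of a type and less RNA per cell cannot be told apart.

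Of the 34 genes, 33 passed the minimum mean of 1 CPM and were tested with all other genes by edgeR's quasi-likelihood test; Cpt1b did not pass. A gene was called at a Benjamini-Hochberg adjusted p under 0.1 over all genes tested. By diet (HFD-fed against ND-fed WT mice) 5 members were higher in eWAT and 7 lower, or 15.2% and 21.2% of those tested, against 24.8% and 26.9% of all genes. In iWAT 6 were higher and 6 lower, 18.2% each, against 25.9% and 24.2% of all genes. The members were thus called by diet in no larger share than all genes, and in both directions, with a median log2 fold change of -0.03 in eWAT (all genes -0.038) and 0.01 in iWAT (all genes 0.004).

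By genotype (HFD-fed Acod1-/- against HFD-fed WT mice) the picture in eWAT was one-sided. There 10 members were higher and 0 lower, 30.3% and 0% of those tested, against 9.13% and 10.8% of all genes, and 27 of 33 members had a positive log2 fold change, with a median of 0.20 against 0.044 for all genes. The 10 were Echs1, Acad12, Abcd2, Eci1, Hadh, Eci2, Acad10, Scp2, Ech1 and Acad11. Acad10, Acad11 and Echs1 are in a list that the study chose on these same samples and are no independent evidence of the direction. The count was 6 without the first HFD-fed WT library, 6 without the first Acod1-/- library, 5 without the third and 14 (13 higher, 1 lower) without the fifth, which is the one high in epididymis and macrophage markers. Within series 1 alone, 10 were higher and 1 lower, the lower one being Cpt1a. With no filter on low counts, where more genes share the adjustment, 4 were higher. The share of all genes called is given here for the main fit only, so these other counts are not set against it.

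Marker lists moved beside the eWAT members. In eWAT 10 of 10 macrophage markers were higher by diet and 10 of 10 lower by genotype, with sums of 514 to 1046 CPM in ND, 2262 to 6864 in HFD-fed WT and 508 to 2018 in Acod1-/- libraries. Of 10 adipocyte markers 6 were lower and 1 higher by diet, and 6 higher and 0 lower by genotype, with sums of 37026 to 50644 CPM in the Acod1-/- libraries. Fibroblast markers were higher by diet in 7 of 7 and lower by genotype in 5 of 7. Endothelial markers were lower by diet in 4 of 5. Epididymis markers were higher by genotype in 3 of the 7 tested. The part of any of these in the members' differences was not tested. The first HFD-fed WT eWAT library had the highest macrophage and the lowest adipocyte sum of its group. It was also the lowest of its group in most members, including every member called by genotype in eWAT except Acad10 and Acad12. In Echs1, Acaa2, Acaa1b, Hsd17b4 and Crat it lay far below the rest of its group.

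Marker lists moved with diet in iWAT too. Brown adipocyte markers were lower in 6 of 8, with sums of 220 to 1446 CPM in ND and 92 to 166 CPM in HFD-fed WT libraries, and skeletal muscle markers in 7 of 8, with sums of 6.46 to 8783 CPM and 20 to 434 CPM. Fibroblast markers were higher in 7 of 7 (1753 to 2487 CPM in ND, 4112 to 6760 in HFD-fed WT), endothelial markers in 5 of 5 (415 to 535 and 552 to 892 CPM) and macrophage markers in 6 of 10 (528 to 693 and 626 to 1543 CPM). Of 10 adipocyte markers 4 were higher and 2 lower. The part of these in the iWAT diet differences of the members, Acadvl, Hadha and Echs1 among them, was not tested.

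In iWAT, where 3 Acod1-/- libraries were compared with 5, no gene of the 14801 tested was called by genotype (0% of genes, lowest adjusted p = 0.108), and therefore no member. At an unadjusted p under 0.05 edgeR's test gave 2468 genes, 3 of them members, and DESeq2's Wald test called 1 member, Acad10. Without the third Acod1-/- library 4 members were called, 2 in each direction, or 12.1% of those tested against 17.9% of all genes. Within series 1, 5 were called, 15.2% against 14.9% of all genes, shares below and near the background. The difference of the genotype effect between the depots was called for 1 of 15034 genes (0.00665%) and for 0 members by edgeR or by DESeq2's Wald test and under each alternative run. At an unadjusted p under 0.05 there were 1524 genes, 2 of them members. A difference of the members' genotype response between the 2 depots was thus not shown, and neither was its absence. The largest such difference among members was for Acad11 (0.66, SE 0.27, adjusted p = 0.416).

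**Figure D1:**
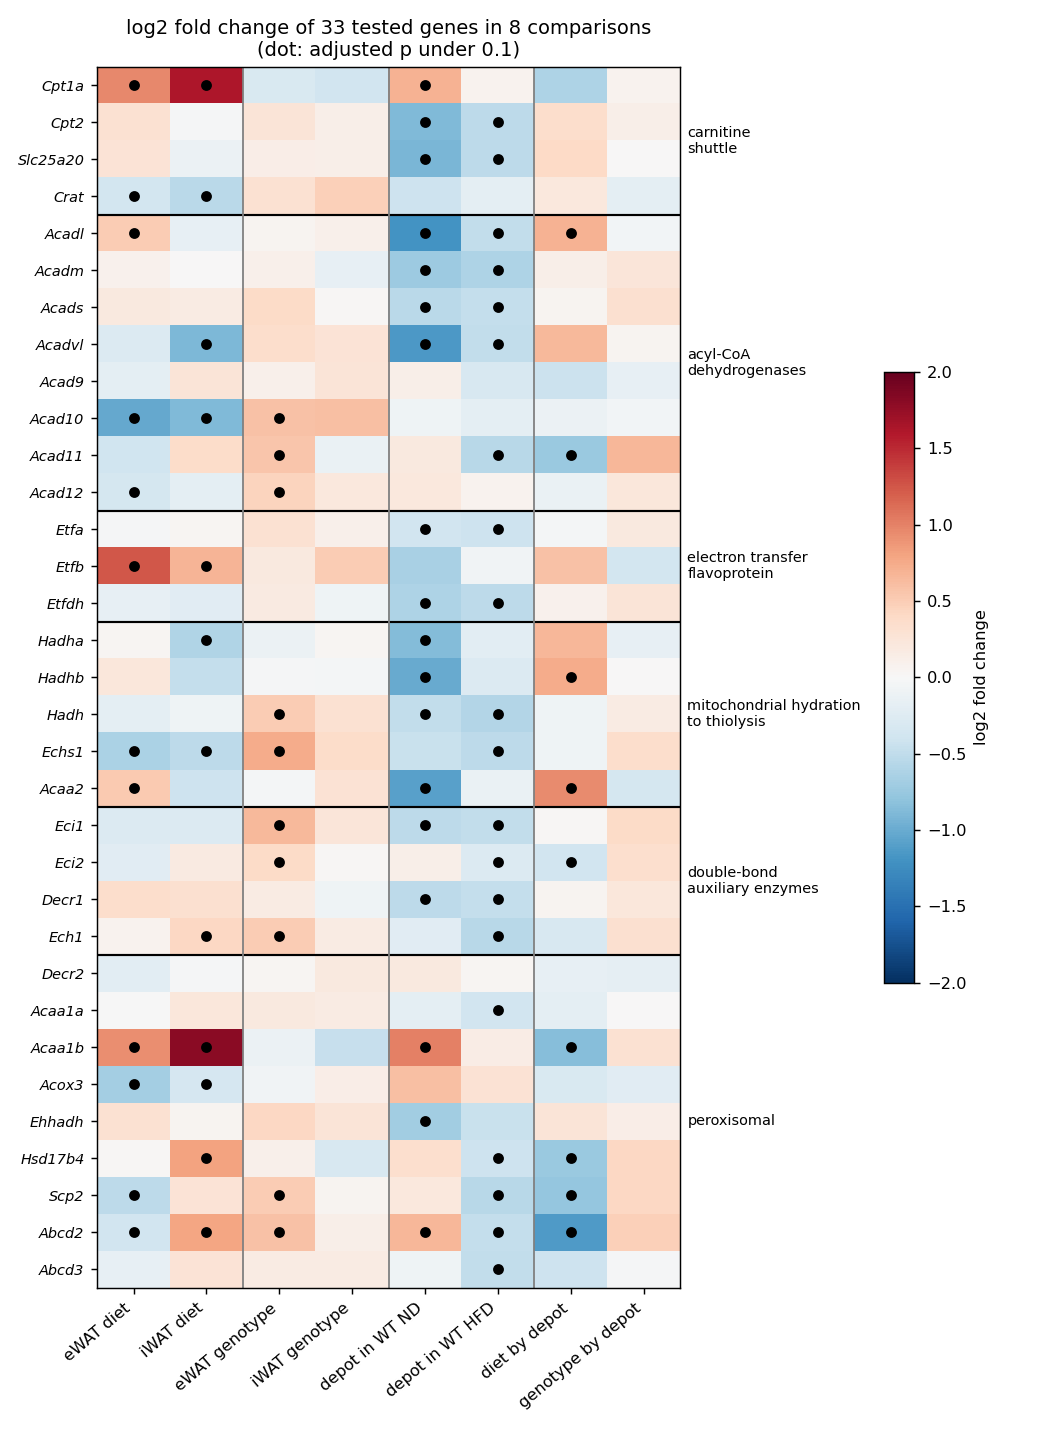
Colour gives the fitted log2 fold change of each of the 33 tested genes (rows, grouped by step) in 8 comparisons (columns): diet is HFD-fed against ND-fed WT mice, genotype HFD-fed Acod1-/- against HFD-fed WT mice, depot eWAT against iWAT, and the last 2 columns are the eWAT effect minus the iWAT effect; a dot marks an adjusted p under 0.1. The 10 dots of the eWAT genotype column are all on positive values, and the depot column of HFD-fed WT mice has 20 dots, all on negative values.

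Of the 4 shuttle genes tested, 1 was higher by diet and 1 lower in each depot, Cpt1a and Crat. Cpt1a (ENSMUSG00000024900, chromosome 19, 3322334 to 3385733, plus strand, GRCm38), the CPT1 form found outside muscle, was higher on the HFD in both depots. In eWAT Cpt1a stood at 87.6, 60.2, 58.9 and 61.2 CPM in ND-fed WT mice, at 135, 144, 118, 142 and 114 CPM in HFD-fed WT mice and at 129, 96.1, 80, 79.7 and 147 CPM in HFD-fed Acod1-/- mice. In iWAT Cpt1a stood at 48.7, 41.2 and 34.6 CPM in ND-fed WT mice, at 111, 125, 132, 139 and 115 CPM in HFD-fed WT mice and at 82.3, 72.8 and 135 CPM in HFD-fed Acod1-/- mice. Every HFD-fed WT library lay above every ND library of its depot (log2 fold change 0.96, SE 0.19, adjusted p = 0.00212 in eWAT; 1.62, SE 0.21, adjusted p = 0.000276 in iWAT), and both calls held under each alternative at the same threshold. The Acod1-/- libraries ran from 79.7 to 147 CPM in eWAT, into both the ND and the HFD-fed WT range, and from 72.8 to 135 in iWAT, all above the ND range, and the genotype differences were not called (-0.30, SE 0.18, adjusted p = 0.296 and -0.38, SE 0.20, adjusted p = 0.364). Within series 1 alone Cpt1a was lower in the Acod1-/- libraries of both depots, by log2 fold changes of -0.50 (adjusted p = 0.0749) in eWAT and -0.70 (adjusted p = 0.0327) in iWAT. Series 1 holds 4 Acod1-/- and 4 HFD-fed WT libraries of eWAT, but 2 and 4 of iWAT. The Acod1-/- libraries it leaves out were the highest of their groups in Cpt1a, at 147 CPM in eWAT and 135 CPM in iWAT.

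The bases before the RefSeq start of Cpt1a are shown because it is, with Acaa1b, the member that rose most by fold in iWAT on the HFD. They are at chr19:3323051-3323284 on the plus strand (GRCm38), inside the annotated gene but in none of its exons, and end 16 bases before the start. Capitals mark AGGTCA on either strand, letters that many nuclear receptors recognise.
Cpt1a: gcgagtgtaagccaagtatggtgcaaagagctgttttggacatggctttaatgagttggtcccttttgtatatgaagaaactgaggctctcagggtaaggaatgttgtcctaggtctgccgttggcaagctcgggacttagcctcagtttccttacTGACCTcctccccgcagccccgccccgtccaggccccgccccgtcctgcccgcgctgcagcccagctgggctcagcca
Of 27 members with an entry in the RefSeq promoter table, 5 held AGGTCA on either strand in the window from 250 bases before to 50 after the start (Acadm, Acadvl, Cpt1a, Echs1 and Scp2), and 16.3% of 32817 promoters did. The paired form, AGGTCA repeated after 1 free base, was in 0 of the 27 and in 0.0396% of all promoters. A match is a description of letters and not a site.

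Slc25a20 and Cpt2 were not called by diet in either depot. Slc25a20, the inner-membrane translocase, stood in eWAT at 94.5, 74.7, 86.2 and 112 CPM in ND-fed WT mice, at 92.6, 95.4, 125, 118 and 121 CPM in HFD-fed WT mice and at 116, 151, 114, 102 and 122 CPM in HFD-fed Acod1-/- mice. In iWAT Slc25a20 stood at 118, 153 and 250 CPM in ND-fed WT mice, at 137, 167, 177, 178 and 130 CPM in HFD-fed WT mice and at 175, 196 and 149 CPM in HFD-fed Acod1-/- mice. The groups of each depot overlapped, and neither diet (0.27, SE 0.15, adjusted p = 0.154 and -0.11, SE 0.22, adjusted p = 0.698) nor genotype was called. Cpt2, the inner-membrane transferase, stood in eWAT at 72.5, 63.8, 87.8 and 114 CPM in ND-fed WT mice, at 68.7, 106, 117, 123 and 104 CPM in HFD-fed WT mice and at 113, 177, 137, 88.9 and 105 CPM in HFD-fed Acod1-/- mice. In iWAT Cpt2 stood at 112, 135 and 220 CPM in ND-fed WT mice, at 127, 158, 176, 163 and 128 CPM in HFD-fed WT mice and at 153, 183 and 162 CPM in HFD-fed Acod1-/- mice. For Cpt2 too the diet groups overlapped in both depots (0.30, SE 0.22, adjusted p = 0.289 and -0.02, SE 0.21, adjusted p = 0.933). The highest value of Slc25a20 and of Cpt2 in the whole series was in the third ND iWAT library, which also had the highest summed brown adipocyte markers. Crat, the carnitine acetyltransferase, was lower on the HFD in eWAT (-0.36, SE 0.16, adjusted p = 0.0877) and in iWAT (-0.54, SE 0.21, adjusted p = 0.055). In eWAT the Crat groups overlapped and the call was lost on leaving out any of 6 single libraries, to an adjusted p of up to 0.221; in iWAT they did not overlap, and the call was lost without the third ND or the first HFD-fed WT library, to up to 0.177.

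Cpt1b, the muscle and brown fat form of CPT1, was near the floor in most libraries. In eWAT Cpt1b stood at 0.539, 0.529, 0.126 and 0.195 CPM in ND-fed WT mice, at 0, 0.167, 0, 0.311 and 0 CPM in HFD-fed WT mice and at 0, 0, 0.246, 0.107 and 0.414 CPM in HFD-fed Acod1-/- mice. In iWAT Cpt1b stood at 0.353, 1.54 and 3.39 CPM in ND-fed WT mice, at 0.125, 0.843, 0.253, 0.32 and 0.401 CPM in HFD-fed WT mice and at 0, 0.728 and 0.389 CPM in HFD-fed Acod1-/- mice. Only ND iWAT libraries 2 and 3 were above 1 CPM, with 79 and 149 counts. The Cpt1b rows are hard to read: 2744 of the 3372 bases of its cDNA are shared with Gm44502 on the same strand, which is listed at 0 counts in all 25 libraries. Reads classed as ambiguous were left out of the counts. Whether reads on the shared bases fell in that class is not given in the sources used here. Even the library rich in skeletal muscle markers had 15 counts of Cpt1b.

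Among the acyl-CoA dehydrogenases, those named for long, medium and short chains were not called by diet except Acadl in eWAT, while Acad10 fell in both depots. Acad10 and Acad12 are neighbouring members of the dehydrogenase family on chromosome 5, whose own substrates are less well known. In eWAT Acad10 stood at 13.1, 16.7, 16.7 and 20.6 CPM in ND-fed WT mice, at 6.77, 8.47, 10.6, 6.3 and 9.03 CPM in HFD-fed WT mice and at 13.8, 11, 15.3, 11.5 and 9.81 CPM in HFD-fed Acod1-/- mice. In iWAT Acad10 stood at 17.8, 16.2 and 19.5 CPM in ND-fed WT mice, at 8.5, 8.99, 9.86, 10.5 and 9.43 CPM in HFD-fed WT mice and at 19.1, 13 and 11.7 CPM in HFD-fed Acod1-/- mice. The HFD-fed WT libraries lay below all ND libraries in both depots (log2 fold change -1.03, SE 0.19, adjusted p = 0.00134; -0.88, SE 0.17, adjusted p = 0.00188), and these calls held under each alternative at the same threshold. In eWAT Acad10 was higher in Acod1-/- than in HFD-fed WT mice (0.58, SE 0.18, adjusted p = 0.0524), with overlapping groups and a call that was lost without HFD-fed WT library 1 or 4 or Acod1-/- library 1 or 3, to an adjusted p of up to 0.131. In iWAT all 3 Acod1-/- libraries were above the 5 HFD-fed WT libraries, at a difference that was not called (0.60, SE 0.17, adjusted p = 0.153).

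In eWAT Acad12 stood at 27.4, 26.8, 31.2 and 33.5 CPM in ND-fed WT mice, at 21.5, 24.8, 24.7, 18.6 and 26.7 CPM in HFD-fed WT mice and at 33.7, 29.1, 34, 37.2 and 25.5 CPM in HFD-fed Acod1-/- mice. In iWAT Acad12 stood at 27.1, 20.2 and 29.8 CPM in ND-fed WT mice, at 19.3, 24.9, 23.7, 18.5 and 24.2 CPM in HFD-fed WT mice and at 32.7, 17.9 and 27.2 CPM in HFD-fed Acod1-/- mice. In eWAT the level was lower on the HFD, with groups apart (-0.35, SE 0.13, adjusted p = 0.0471), though not without ND library 3 or 4 or HFD-fed WT library 4 (adjusted p of up to 0.131). It was higher in Acod1-/- mice (0.45, SE 0.13, adjusted p = 0.0357), which held under each alternative at the same threshold. Acad10 and Acad12 share sequence: 16.8% of the 50-base words of Acad10 transcripts also occur in Acad12 and 15.7% the other way round, so part of their counts may be split or lost between them. 

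In eWAT Acad11, another member of the dehydrogenase family, stood at 147, 104, 132 and 165 CPM in ND-fed WT mice, at 73.6, 130, 110, 99.4 and 103 CPM in HFD-fed WT mice and at 203, 110, 171, 136 and 135 CPM in HFD-fed Acod1-/- mice. In iWAT Acad11 stood at 112, 96.4 and 151 CPM in ND-fed WT mice, at 124, 175, 175, 138 and 147 CPM in HFD-fed WT mice and at 150, 121 and 150 CPM in HFD-fed Acod1-/- mice. By diet the eWAT and iWAT log2 fold changes had opposite signs and neither was called (-0.40, SE 0.19, adjusted p = 0.11; 0.37, SE 0.17, adjusted p = 0.11). In eWAT Acad11 was higher in Acod1-/- mice (0.55, SE 0.18, adjusted p = 0.0691), a call lost without HFD-fed WT library 1 or 4 or Acod1-/- library 1 or 3 (up to 0.166) and within series 1 (0.117).

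Acadvl, the very long chain enzyme of the inner membrane, fell on the HFD in iWAT. In eWAT Acadvl stood at 181, 167, 224 and 250 CPM in ND-fed WT mice, at 125, 184, 168, 209 and 168 CPM in HFD-fed WT mice and at 209, 276, 228, 211 and 163 CPM in HFD-fed Acod1-/- mice. In iWAT Acadvl stood at 285, 391 and 695 CPM in ND-fed WT mice, at 207, 254, 266, 256 and 222 CPM in HFD-fed WT mice and at 248, 369 and 273 CPM in HFD-fed Acod1-/- mice. The ND libraries of iWAT were all above the HFD-fed WT ones (-0.90, SE 0.25, adjusted p = 0.0136), and the third, at 695 CPM, was far above the other two; without it the log2 fold change was -0.48 (adjusted p = 0.0655). In eWAT the groups overlapped (-0.27, SE 0.17, adjusted p = 0.225). The medium and short chain genes Acadm and Acads and the assembly factor Acad9 were not called by diet or genotype in either depot. Acadl, the long chain enzyme, was higher on the HFD in eWAT (0.50, SE 0.19, adjusted p = 0.0444), but not without the second ND library (adjusted p = 0.129).

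Of the electron transfer flavoprotein, the subunit gene Etfa and the dehydrogenase Etfdh, which passes the electrons to ubiquinone, were not called by diet or genotype. The other subunit gene, Etfb, was higher on the HFD in eWAT (1.24, SE 0.37, adjusted p = 0.0168) and iWAT (0.68, SE 0.31, adjusted p = 0.096). Its row is an unsure measure. Of its 1164 cDNA bases 678 are shared with Gm45233 and a microRNA gene on the same strand, Gm45233 is listed at 0 in every library, and Etfb had 14.8 ± 5.59 FPKM (SD, n = 4) in ND eWAT beside 208 ± 31.9 for its partner subunit Etfa. In the fit with the series as a term both Etfb diet calls were lost, with log2 fold changes of 1.06 (adjusted p = 0.116) in eWAT and 0.13 (adjusted p = 0.783) in iWAT. The iWAT call was also lost on leaving out any of 8 single libraries, to as low as 0.44 without the first ND library.

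Hydration to thiolysis in the mitochondrion is shared between the trifunctional protein (Hadha and Hadhb), which handles long chains, and the matrix enzymes Echs1 (enoyl-CoA hydratase), Hadh (hydroxyacyl-CoA dehydrogenase) and Acaa2 (thiolase) for shorter ones. Echs1 had the largest genotype difference of all members in eWAT. In eWAT Echs1 stood at 199, 217, 271 and 318 CPM in ND-fed WT mice, at 102, 169, 173, 185 and 174 CPM in HFD-fed WT mice and at 262, 308, 314, 260 and 199 CPM in HFD-fed Acod1-/- mice. In iWAT Echs1 stood at 269, 330 and 421 CPM in ND-fed WT mice, at 185, 257, 250, 233 and 228 CPM in HFD-fed WT mice and at 254, 352 and 303 CPM in HFD-fed Acod1-/- mice. On the HFD it was lower in both depots with the groups apart (-0.64, SE 0.19, adjusted p = 0.0163 in eWAT; -0.53, SE 0.17, adjusted p = 0.0277 in iWAT, where the call was lost without the third ND library). All 5 Acod1-/- eWAT libraries lay above all 5 HFD-fed WT libraries (0.74, SE 0.18, adjusted p = 0.0224), under each alternative at the same threshold. The iWAT genotype difference was in the same direction with overlapping groups and was not called (0.37, SE 0.17, adjusted p = 0.305).

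The bases before the RefSeq start of Echs1 (chr7:140116477-140116671, minus strand, GRCm38), outside all annotated exons and ending 55 bases before the start, are shown because Echs1 moved with both diet and genotype; capitals again mark AGGTCA.
Echs1: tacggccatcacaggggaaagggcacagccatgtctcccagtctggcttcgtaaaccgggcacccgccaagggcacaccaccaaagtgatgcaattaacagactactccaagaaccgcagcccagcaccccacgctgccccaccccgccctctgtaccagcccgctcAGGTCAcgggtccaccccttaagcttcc

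Acaa2, the mitochondrial thiolase of medium chains, rose on the HFD in eWAT and not in iWAT. In eWAT Acaa2 stood at 119, 102, 116 and 146 CPM in ND-fed WT mice, at 127, 175, 190, 191 and 184 CPM in HFD-fed WT mice and at 169, 195, 164, 140 and 176 CPM in HFD-fed Acod1-/- mice. In iWAT Acaa2 stood at 170, 196 and 402 CPM in ND-fed WT mice, at 161, 222, 181, 179 and 205 CPM in HFD-fed WT mice and at 217, 243 and 247 CPM in HFD-fed Acod1-/- mice. The eWAT call (0.52, SE 0.14, adjusted p = 0.011) held under each alternative at the same threshold, though the groups overlapped through the first HFD-fed WT library. In iWAT the third ND library, at 402 CPM, was above all other libraries of the series, and the diet difference was not called (-0.41, SE 0.25, adjusted p = 0.205). Hadha was lower on the HFD in iWAT (-0.60, SE 0.25, adjusted p = 0.0741), but without the third ND library the log2 fold change was -0.24 (adjusted p = 0.4). The call was also lost without HFD-fed WT library 1, 2 or 5, at -0.54 to -0.60. Hadh was higher in Acod1-/- than in HFD-fed WT mice in eWAT (0.50, SE 0.15, adjusted p = 0.0418), a call that held on leaving out each library and was lost with no filter.

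Hadha and Hadhb lie head to head on chromosome 5, with 85 bases between their annotated ends (chr5:30155163-30155247, shown on the plus strand, 69.4% G and C). The gap is printed because both subunits of 1 enzyme can be read from it in opposite directions; their log2 fold changes were 0.04 and 0.23 by diet in eWAT, -0.60 and -0.48 by diet in iWAT, and -0.11 and -0.02 by genotype in eWAT. No motif is marked in it.
Hadha-Hadhb: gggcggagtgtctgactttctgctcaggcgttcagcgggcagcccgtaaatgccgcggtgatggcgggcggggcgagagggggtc

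Of the 4 auxiliary enzymes of unsaturated chains, 3 were higher by genotype in eWAT and 0 were called by diet there. Eci1 and Eci2 are enoyl-CoA isomerases, Ech1 a dienoyl-CoA isomerase and Decr1 the mitochondrial dienoyl-CoA reductase. In eWAT Eci2 stood at 98.8, 105, 113 and 120 CPM in ND-fed WT mice, at 69.7, 93.9, 96.3, 99.6 and 106 CPM in HFD-fed WT mice and at 120, 120, 137, 110 and 117 CPM in HFD-fed Acod1-/- mice. In iWAT Eci2 stood at 96.3, 92.3 and 115 CPM in ND-fed WT mice, at 103, 120, 112, 117 and 108 CPM in HFD-fed WT mice and at 126, 98.5 and 124 CPM in HFD-fed Acod1-/- mice. The 5 Acod1-/- eWAT libraries were all above the 5 HFD-fed WT libraries (0.38, SE 0.11, adjusted p = 0.0446), a call lost without the third Acod1-/- library (log2 fold change 0.33, adjusted p = 0.11). Eci1 was higher too (0.65, SE 0.19, adjusted p = 0.0404), and held on leaving out each library. Ech1 was higher (0.50, SE 0.16, adjusted p = 0.0631), but lost the call without any of 6 libraries (adjusted p of up to 0.137); by diet it was called in iWAT only (0.42, SE 0.15, adjusted p = 0.04, lost without ND library 1 or 2), and that difference from eWAT was not called (-0.32, SE 0.23, adjusted p = 0.355). Decr1 was not called by diet or genotype.

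In the peroxisome, the thiolase gene Acaa1b (ENSMUSG00000010651, chromosome 9, 119148023 to 119157093, minus strand) rose with diet most of all members in iWAT. In eWAT Acaa1b stood at 66.1, 47.4, 50.9 and 60.5 CPM in ND-fed WT mice, at 69.9, 109, 124, 112 and 120 CPM in HFD-fed WT mice and at 106, 96.4, 103, 68.7 and 119 CPM in HFD-fed Acod1-/- mice. In iWAT Acaa1b stood at 23.5, 26.2 and 34.4 CPM in ND-fed WT mice, at 75.9, 123, 109, 103 and 69.5 CPM in HFD-fed WT mice and at 73.2, 62.7 and 77.3 CPM in HFD-fed Acod1-/- mice. All HFD-fed WT libraries were above all ND libraries of their depot (log2 fold change 0.93, SE 0.18, adjusted p = 0.00199; 1.8, SE 0.22, adjusted p = 0.000177), and both calls held under each alternative at the same threshold. The genotype differences were not called (-0.12, SE 0.17, adjusted p = 0.677; -0.46, SE 0.20, adjusted p = 0.29). Acaa1b shares 30.5% of its 50-base words with Acaa1a, the second peroxisomal thiolase of this kind, and 12.4% of those of Acaa1a occur in Acaa1b. Acaa1a was not called by diet (-0.01, SE 0.11 and 0.22, SE 0.14).

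The 250 bases before the Acaa1b start (chr9:119157094-119157343, minus strand, GRCm38), outside annotated exons, hold no AGGTCA on either strand and so no capitals. They are shown beside those of Cpt1a, which rose in the same comparisons.
Acaa1b: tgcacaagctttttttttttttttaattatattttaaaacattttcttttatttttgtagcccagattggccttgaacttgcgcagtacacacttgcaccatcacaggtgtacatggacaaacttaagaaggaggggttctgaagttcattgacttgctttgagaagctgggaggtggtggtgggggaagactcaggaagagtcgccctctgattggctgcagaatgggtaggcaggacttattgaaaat

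Abcd2, an importer of very long chain acyl-CoAs in the peroxisomal membrane, moved with diet in opposite directions in the 2 depots. In eWAT Abcd2 stood at 573, 442, 433 and 613 CPM in ND-fed WT mice, at 258, 472, 411, 362 and 473 CPM in HFD-fed WT mice and at 637, 597, 674, 501 and 575 CPM in HFD-fed Acod1-/- mice. In iWAT Abcd2 stood at 412, 284 and 278 CPM in ND-fed WT mice, at 437, 589, 563, 539 and 613 CPM in HFD-fed WT mice and at 563, 458 and 772 CPM in HFD-fed Acod1-/- mice. In iWAT every HFD-fed WT library was above every ND library (0.79, SE 0.21, adjusted p = 0.0106). In eWAT the diet groups overlapped at a lower mean (-0.38, SE 0.18, adjusted p = 0.0959), a call lost on leaving out any of 8 libraries (adjusted p of up to 0.244). Every Acod1-/- eWAT library was above every HFD-fed WT library (0.59, SE 0.17, adjusted p = 0.0369). The iWAT diet call and the eWAT genotype call held under each alternative at the same threshold.

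Scp2 encodes, from separate starts, a peroxisomal thiolase of branched chains and a sterol carrier protein, which its row does not separate. It was the most abundant member per length in ND eWAT, at 318 ± 55.8 FPKM (SD, n = 4). In eWAT Scp2 stood at 889, 1090, 1089 and 1362 CPM in ND-fed WT mice, at 558, 702, 909, 919 and 771 CPM in HFD-fed WT mice and at 1176, 1138, 1164, 1115 and 860 CPM in HFD-fed Acod1-/- mice. In iWAT Scp2 stood at 867, 904 and 1110 CPM in ND-fed WT mice, at 1004, 1207, 1221, 1183 and 1088 CPM in HFD-fed WT mice and at 1141, 1260 and 1221 CPM in HFD-fed Acod1-/- mice. In eWAT it was lower on the HFD (-0.52, SE 0.17, adjusted p = 0.024), with overlapping groups, under each alternative at the same threshold. It was higher in Acod1-/- than in HFD-fed WT eWAT (0.50, SE 0.16, adjusted p = 0.0576), where 4 Acod1-/- libraries, at 1115 to 1176 CPM, were above all HFD-fed WT libraries and the fifth, at 860, was not. That call was lost without HFD-fed WT library 1 or 2 or Acod1-/- library 1, 3 or 4 (up to 0.135). In iWAT neither was called (0.28, SE 0.13, adjusted p = 0.104 by diet).

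The window before the RefSeq start of Scp2 (chr4:108118548-108118797, minus strand, GRCm38) lies inside the annotated gene and in none of its exons, and is shown for the AGGTCA in capitals.
Scp2: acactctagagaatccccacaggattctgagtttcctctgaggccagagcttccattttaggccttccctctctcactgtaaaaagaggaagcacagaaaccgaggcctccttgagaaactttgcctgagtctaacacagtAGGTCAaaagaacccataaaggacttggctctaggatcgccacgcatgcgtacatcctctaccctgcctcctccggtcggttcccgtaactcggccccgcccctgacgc

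Hsd17b4, the D-bifunctional enzyme of hydration and second oxidation, rose on the HFD in iWAT. In eWAT Hsd17b4 stood at 422, 304, 385 and 429 CPM in ND-fed WT mice, at 302, 422, 418, 404 and 410 CPM in HFD-fed WT mice and at 452, 358, 391, 415 and 487 CPM in HFD-fed Acod1-/- mice. In iWAT Hsd17b4 stood at 297, 248 and 372 CPM in ND-fed WT mice, at 449, 543, 572, 548 and 486 CPM in HFD-fed WT mice and at 328, 390 and 547 CPM in HFD-fed Acod1-/- mice. The diet groups were apart in iWAT (0.80, SE 0.20, adjusted p = 0.0079), where the call held under each alternative at the same threshold, and overlapped in eWAT (0.03, SE 0.14, adjusted p = 0.896). Genotype was not called in either depot.

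Acox3, an acyl-CoA oxidase of branched chains, was lower on the HFD in iWAT, while the eWAT difference rested on 1 library. In eWAT Acox3 stood at 64.7, 180, 54.6 and 59.3 CPM in ND-fed WT mice, at 69.7, 62.1, 46.5, 45.5 and 56.1 CPM in HFD-fed WT mice and at 56.8, 49.2, 47.2, 46.8 and 66.8 CPM in HFD-fed Acod1-/- mice. In iWAT Acox3 stood at 62, 59 and 56.7 CPM in ND-fed WT mice, at 43.1, 45.1, 51.6, 40.7 and 47.9 CPM in HFD-fed WT mice and at 54, 49.3 and 49 CPM in HFD-fed Acod1-/- mice. In iWAT the diet groups were apart (-0.34, SE 0.10, adjusted p = 0.0173). In eWAT (-0.68, SE 0.30, adjusted p = 0.0818) the log2 fold change was -0.08 (adjusted p = 0.725) without the second ND library, whose 180 CPM stood against 54.6 to 64.7 in the rest of its group and which is the library rich in epididymis markers. The eWAT call was also lost without HFD-fed WT library 3, 4 or 5, at -0.61 to -0.68. Both Acox3 calls were lost in the fit with the series as a term. Of the remaining peroxisomal members, Decr2, Ehhadh (the L-bifunctional enzyme) and Abcd3 (a second acyl-CoA importer) were not called by diet or genotype.

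**Figure D2:**
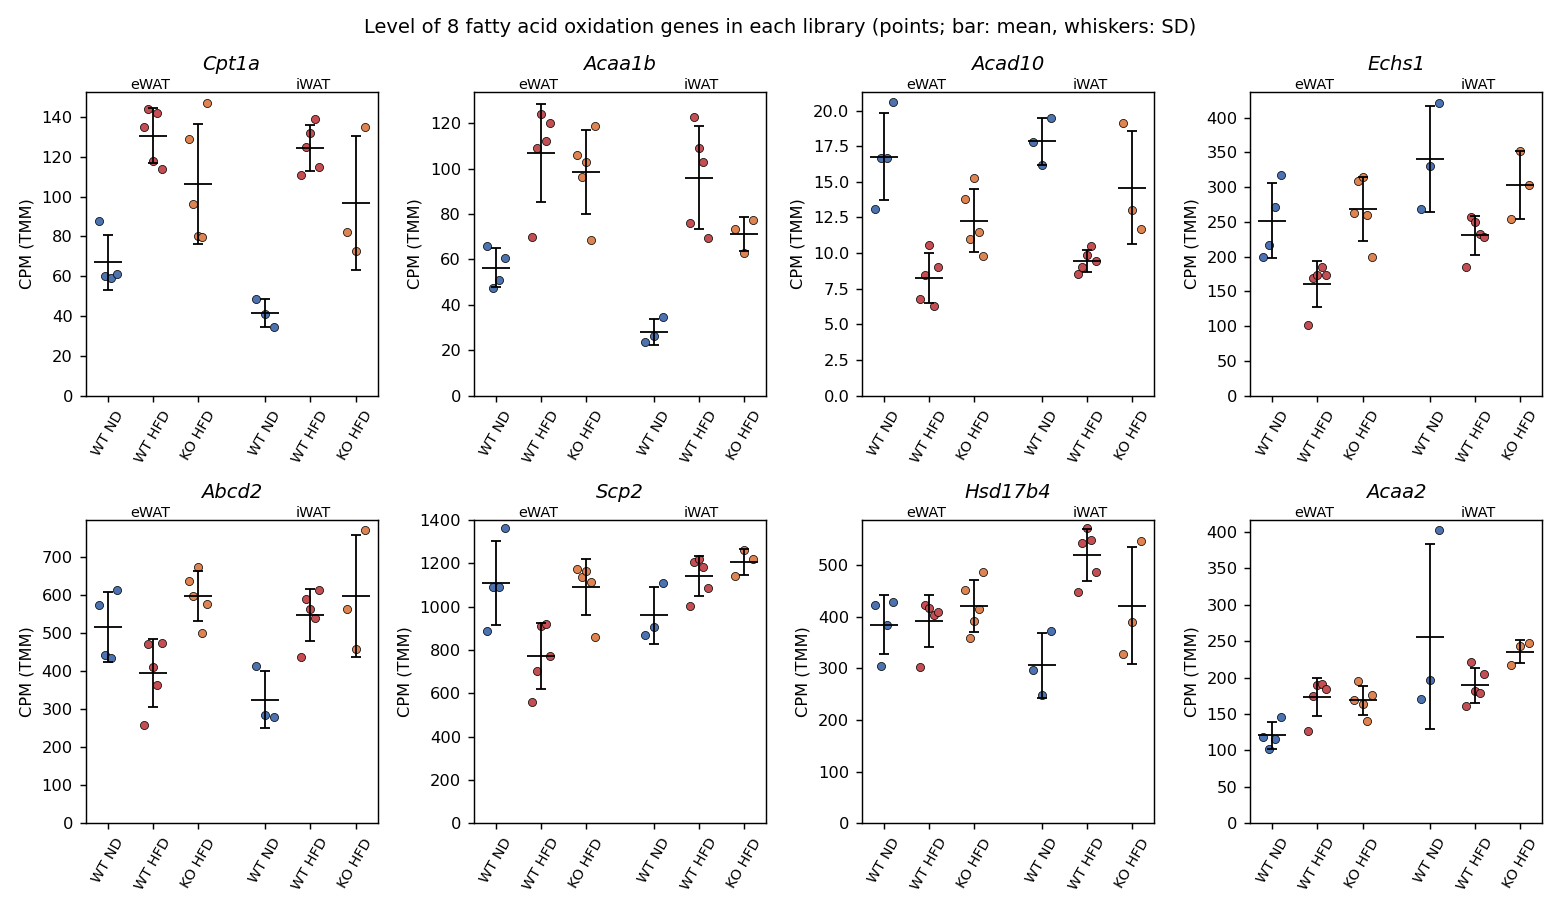
Level in CPM after TMM scaling (vertical axes, from 0) of 8 members in each library (points), by group and depot, with the mean (bar) and SD (whiskers). Cpt1a and Acaa1b are higher in all HFD-fed WT libraries than in the ND libraries of their depot, and Abcd2 and Hsd17b4 are so in iWAT, while their ND and HFD ranges overlap in eWAT.

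Whether diet acted alike in the 2 depots was tested as an interaction, the eWAT difference minus the iWAT difference, in 1 fit of all libraries. It was called for 9 members, 27.3% of those tested, against 29.0% of all genes (2108 of 15034 positive and 2252 negative), a share near the background. Of the 9, 3 were positive and 6 negative. The positive members were Acaa2 (0.95, SE 0.28, adjusted p = 0.0168), Hadhb (0.74, SE 0.25, adjusted p = 0.0394) and Acadl (0.69, SE 0.26, adjusted p = 0.0649). Of the 6 negative members 4 were of the step listed here as peroxisomal, namely Abcd2 (-1.14, SE 0.27, adjusted p = 0.0046), Scp2 (-0.77, SE 0.21, adjusted p = 0.0128), Hsd17b4 (-0.74, SE 0.23, adjusted p = 0.0221) and Acaa1b (-0.85, SE 0.28, adjusted p = 0.0326). The others were Acad11, listed here with the dehydrogenases (-0.75, SE 0.27, adjusted p = 0.0532), and Eci2, listed here with the auxiliary enzymes (-0.38, SE 0.16, adjusted p = 0.0971). The steps are lists of genes, and these data do not place an enzyme in the cell. Of 9 peroxisomal members 1 had a positive interaction, with a median of -0.41, and of the 5 genes of mitochondrial hydration to thiolysis 3 had, with a median of 0.66. The median of all genes was -0.040. The acyl-CoA dehydrogenases held 1 call in each direction, and no test compared 1 step with another.

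The 4 peroxisomal calls held under each alternative at the same threshold, including without each library. The 3 positive calls were all lost without the third ND iWAT library, to log2 values of 0.47 (Acaa2, adjusted p = 0.124), 0.33 (Hadhb, 0.267) and 0.38 (Acadl, 0.308); Acadl was also lost without the second ND eWAT library (0.58, 0.132) or the fifth HFD-fed WT iWAT library (0.65, 0.102). Eci2 was lost without any of 17 libraries (up to 0.257), and Acad11 without ND eWAT library 4 or ND iWAT library 1 or 2 (up to 0.177). Without the 4 libraries rich in markers of another tissue, 11 members were called, 5 positive and 6 negative.

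Marker genes of other cells moved in the same comparison. Brown adipocyte markers summed to 220, 513 and 1446 CPM in the 3 ND iWAT libraries, the last being the third, against 92 to 166 CPM in HFD-fed WT iWAT, and to 18.2 to 35.7 and 42.6 to 97.1 CPM in the ND and HFD-fed WT groups of eWAT. Of 8 such markers, which include Ppargc1a, 7 were called with a positive diet-by-depot interaction, and none of the 8 was at 0 in every library of a group. Of 10 adipocyte markers 5 were called negative and 0 positive. Adipocyte markers summed to 30569 to 37680 CPM in ND and 42326 to 53622 CPM in HFD-fed WT iWAT, and to 30400 to 45174 and 20435 to 45421 CPM in eWAT. Endothelial markers were called negative in 5 of 5 and skeletal muscle markers positive in 5 of 8. The part of these cells in the interaction was not tested.

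**Figure D3:**
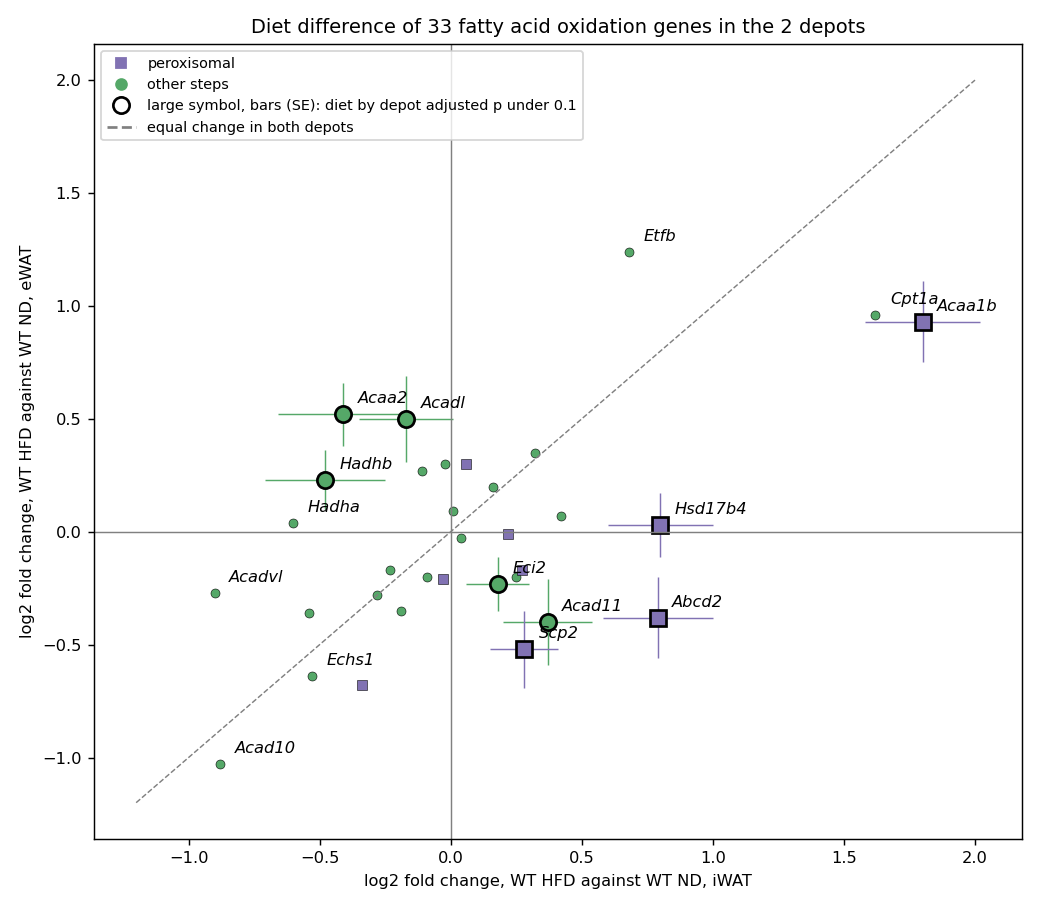
Log2 fold change of HFD-fed against ND-fed WT mice in iWAT (horizontal) and eWAT (vertical) for the 33 tested members, squares for genes of the step listed as peroxisomal and circles for all others. Large symbols with SE bars have a diet-by-depot adjusted p under 0.1. The 4 large squares lie below the dashed line of equal change, and Acaa2, Hadhb and Acadl lie above it.

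Compared directly, eWAT had lower levels than iWAT of many members. In ND-fed WT mice 15 members were lower in eWAT and 3 higher, 45.5% and 9.09% of those tested, against 14.2% and 17.5% of all genes. The 3 higher ones were Cpt1a (0.69, SE 0.22), Acaa1b (1.0, SE 0.22) and Abcd2 (0.67, SE 0.21), of which Acaa1b and Abcd2 are peroxisomal. Of the 15 lower ones 14 were outside the peroxisomal step, led by Acadl (-1.19, SE 0.20, adjusted p = 0.000204), Acadvl (-1.15, SE 0.23, adjusted p = 0.00111), Acaa2 (-1.08, SE 0.21, adjusted p = 0.000791) and Hadhb (-1.01, SE 0.19, adjusted p = 0.000661), and the other was Ehhadh. Without the third ND iWAT library, 6 were lower and 3 higher, and the log2 differences shrank to -0.72 for Acadvl, -0.60 for Acaa2 and -0.60 for Hadhb. Those 4 leading genes, Slc25a20, Acadm and Acaa1b kept their calls on leaving out each library. All 8 brown adipocyte markers and all 8 skeletal muscle markers were lower in eWAT in this comparison, and the summed muscle markers of the ND iWAT libraries ran from 6.46 to 8783 CPM; their part was not tested.

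In HFD-fed WT mice 20 members were lower in eWAT than in iWAT and 0 higher, 60.6% and 0% against 7.75% and 10.8% of all genes. The members lower in eWAT now included 5 of 9 peroxisomal genes and 4 of 4 auxiliary ones. The smallest adjusted p were those of Acadm (-0.61, SE 0.14, adjusted p = 0.00687), Scp2 (-0.56, SE 0.14, adjusted p = 0.00883) and Hadh (-0.59, SE 0.14, adjusted p = 0.00951). The sizes were modest, none beyond -0.61, and the count rested on a few libraries: 5 without the first HFD-fed WT eWAT library, 7 without the second or the third iWAT library and 12 without the fourth. Acadm, Hadh, Ech1, Acaa1a and Scp2 kept their calls on leaving out each library. In these 2 groups macrophage markers summed to 2262 to 6864 CPM in eWAT and 626 to 1543 in iWAT, 10 of 10 being higher in eWAT. Lower in eWAT were 5 of 10 adipocyte, 6 of 8 skeletal muscle, 5 of 5 endothelial and 1 of 8 brown adipocyte markers. Of 7 fibroblast markers 3 were higher and 2 lower. The part of any of these was not tested.

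**Figure D4:**
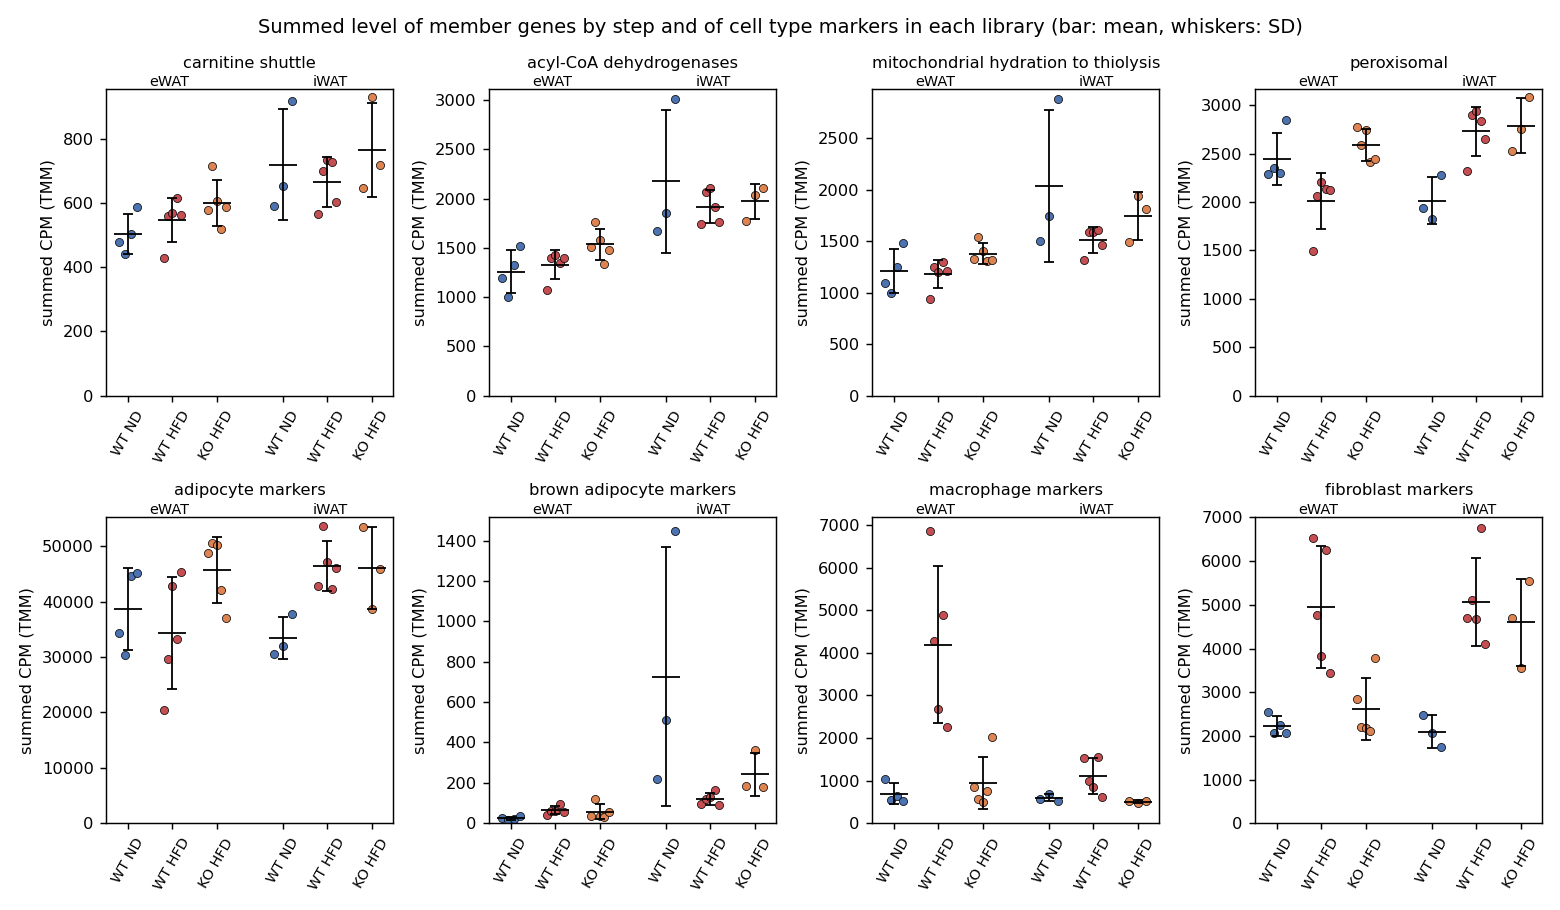
Summed CPM after TMM scaling (vertical axes, from 0) in each library (points) of 4 steps of the pathway (top) and of 4 lists of cell type markers (bottom), with the mean (bar) and SD (whiskers) of each group. Peroxisomal members sum to 1497 to 2211 CPM in HFD-fed WT eWAT and 2411 to 2772 in Acod1-/- eWAT; the third ND iWAT library is highest in the dehydrogenases, in hydration to thiolysis and in brown adipocyte markers.

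Summed over the step, the peroxisomal genes of eWAT reached 2447 ± 266 CPM (SD, n = 4) in ND-fed WT, 2008 ± 290 (n = 5) in HFD-fed WT and 2593 ± 167 (n = 5) in Acod1-/- mice. The HFD-fed WT libraries, at 1497 to 2211 CPM, lay below all ND libraries (2288 to 2844) and all Acod1-/- libraries (2411 to 2772). In iWAT the same sum was 2016 ± 239 (n = 3), 2731 ± 253 (n = 5) and 2789 ± 282 (n = 3), so that the ND mean was lowest there. The eWAT sum was carried by Scp2 and Abcd2, which together stood at 1623 ± 237, 1167 ± 203 and 1687 ± 166 CPM in the 3 groups, while the other 7 members summed to 825 ± 36.2, 841 ± 90.4 and 906 ± 82.8 CPM, with overlapping ranges. The shuttle summed to 503 ± 63.3, 547 ± 70.2 and 601 ± 71.8 CPM in eWAT, and the dehydrogenases to 1259 ± 219, 1331 ± 146 and 1535 ± 158, with overlapping groups.

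In eWAT 5 members were lower by diet and higher by genotype, namely Acad10, Acad12, Echs1, Scp2 and Abcd2, beside 998 of all 14936 genes tested (6.68%). The 2 comparisons share the 5 HFD-fed WT libraries, so they are not independent and the count is given as a description. The log2 fold changes by diet and by genotype were -1.03 and 0.58, -0.35 and 0.45, -0.64 and 0.74, -0.52 and 0.50, and -0.38 and 0.59, in that order. The comparison of Acod1-/- mice with ND-fed WT mice leaves those libraries out of the contrast, though not out of the estimate of spread. There 11 members were higher and 1 lower in eWAT (33.3% and 3.03%, against 13.5% and 13.0% of all genes), and none of these 5 was called: their log2 fold changes were -0.45, 0.10, 0.10, -0.02 and 0.21. Acad10 was called lower by DESeq2's Wald test (-0.44, adjusted p = 0.0934). By edgeR it was also called lower without ND library 1 (-0.58, adjusted p = 0.0758), HFD-fed WT library 1 (-0.47, 0.0947) or Acod1-/- library 3 (-0.54, 0.071). The 11 higher members included Acaa1b (0.81, SE 0.18, adjusted p = 0.0157), Cpt1a (0.67, SE 0.19, adjusted p = 0.0338), Acads (0.57, SE 0.17, adjusted p = 0.0372), Acaa2 (0.49, SE 0.14, adjusted p = 0.0362) and Ech1 (0.57, SE 0.18, adjusted p = 0.0424). The count was 4 without the second ND library, 6 without the second Acod1-/- library, 4 without the 4 libraries rich in other markers and 2 with the series as a term. For these fits too the share of all genes called is not given here.

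In iWAT the comparison of Acod1-/- with ND-fed WT mice gave 6 members higher (18.2%, against 18.5% of all genes) and 0 lower (against 16.1%). They were Acaa1b (1.35, SE 0.23, adjusted p = 0.00169), Cpt1a (1.24, SE 0.22, adjusted p = 0.00241), Abcd2 (0.90, SE 0.23, adjusted p = 0.0139), Ech1, Etfb and Acaa1a. The count was 13 without the third ND library, 11 without the first Acod1-/- library and 8, now 4 in each direction, without the 4 libraries rich in other markers. The share of all genes called in these fits is not given here, so these counts are no result about the members.

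Lists of related genes were read in the same way. Among 7 tested genes of carnitine supply and malonyl-CoA control, Acacb, the mitochondrial-membrane acetyl-CoA carboxylase that makes the malonyl-CoA for CPT1, was lower on the HFD in eWAT (log2 fold change -1.67, SE 0.34, adjusted p = 0.00242) and iWAT (-1.36, SE 0.33, adjusted p = 0.00752) and higher by genotype in eWAT (1.0, SE 0.33, adjusted p = 0.0605). Its mean was 224 ± 76.5, 70.4 ± 18.9 and 141 ± 75.2 CPM in the 3 eWAT groups (SD, n = 4, 5 and 5). In all, 1 gene of this list was higher and 2 lower by diet in eWAT, 2 and 1 in iWAT, and 1 was higher by genotype in eWAT. Slc22a5, the carnitine importer, was the other gene lower on the HFD in eWAT (-0.95, SE 0.24, adjusted p = 0.00738). Its mean was 53.6 ± 29.3 CPM in ND-fed and 27.6 ± 2.69 CPM in HFD-fed WT eWAT (SD, n = 4 and 5). The ND libraries thus varied widely, and whether the difference rested on 1 of them is not given here.

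Of 10 other oxidation enzymes, 3 were higher and 3 lower by diet in eWAT, 1 and 4 in iWAT, and 3 higher and 0 lower by genotype in eWAT. Oxct1, which activates ketone bodies, was higher on the HFD in both depots (0.47, SE 0.16, adjusted p = 0.0296 in eWAT; 0.96, SE 0.14, adjusted p = 0.000436 in iWAT). Echdc2, an enoyl-CoA hydratase family member, was lower on the HFD in eWAT (-1.60, SE 0.25, adjusted p = 0.000605) and higher by genotype (0.97, SE 0.24, adjusted p = 0.0217). Among 9 other peroxisomal lipid enzymes 0 were higher and 3 lower by diet in eWAT, 2 and 0 in iWAT, and 2 were higher by genotype in eWAT. Phyh, which starts the breakdown of phytanic acid, was lower by diet in eWAT (-0.70, SE 0.21, adjusted p = 0.0181) and higher by genotype (0.82, SE 0.20, adjusted p = 0.0222).

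Of 9 peroxisome biogenesis genes, 1 was higher and 2 lower by diet in eWAT, 3 and 0 in iWAT, and 2 higher by genotype in eWAT. Pex3, needed to build the peroxisomal membrane, was lower by diet in eWAT (-0.77, SE 0.16, adjusted p = 0.00231), higher by genotype (0.58, SE 0.15, adjusted p = 0.0258) and negative in the diet-by-depot interaction (-0.76, SE 0.21, adjusted p = 0.013). Of 10 regulators 1 was higher and 5 lower by diet in eWAT, 0 and 3 in iWAT, and 2 higher by genotype in eWAT. Nrip1, a corepressor of oxidative genes in fat, was lower by diet in eWAT (-0.81, SE 0.15, adjusted p = 0.00135) and higher by genotype (0.76, SE 0.14, adjusted p = 0.011). In iWAT the lower regulators were Ppargc1a (-1.03, SE 0.27, adjusted p = 0.0119), Pdk4 (-1.44, SE 0.37, adjusted p = 0.00973) and Ppargc1b (-0.97, SE 0.41, adjusted p = 0.0777).

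In the fit with the series as a term, 7 members were called by diet in eWAT (4 higher, 3 lower) and 6 in iWAT (4 higher, 2 lower), 21.2% and 18.2% of those tested, against 34.4% and 38.8% of all genes in the same fits. The diet calls that held under each alternative at the same threshold were Cpt1a, Acaa1b, Acaa2, Acad10, Echs1 and Scp2 in eWAT and Cpt1a, Acaa1b, Hsd17b4, Abcd2, Acad10 and Acadvl in iWAT. The eWAT genotype calls that did so were Echs1, Acad12, Abcd2 and Eci1.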

How the data were processed

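The authors made directional mRNA libraries, trimmed the reads with cutadapt and aligned them to mm10 (GRCm38) with STAR; bedtools is also named in the submitters' processing notes. The deposited files give raw counts per gene, and FPKM that the authors derived from counts and cDNA length (recomputed FPKM differed by at most 0.0005). The FPKM quoted above are not those, and were computed from the TMM-scaled CPM. The counting program and its use of strand are not given in the sources used here. Of the gene IDs, 54723 matched the GENCODE annotation and 29 did not. Reads on no feature (6.41% to 11.9%) and ambiguous reads (1.52% to 2.07%) were left out.

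Genes with a mean CPM of 1 or more were TMM-normalized and fitted by group with edgeR 4.0.16 (quasi-likelihood test, R 4.3.3), per depot for diet and genotype and over all 25 libraries for depot and interaction contrasts; adjustment was by Benjamini-Hochberg over every gene in the fit, and 0.1 was the threshold for a call. Nothing in the labels says which libraries share an animal, and p-values measure only the spread between these samples. The members and lists were chosen with earlier results of these data known. Values in every library are given for shuttle genes, for the 3 called members of smallest adjusted p in each direction of each diet and genotype comparison, for those called by both in eWAT and for the first 3 of each interaction; other lists have at most 3 named genes per comparison.

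Alternatives were no filter, DESeq2 1.42.0 size factors or its Wald test, the series or replicate number as a term, series 1 alone, an adjusted p under 0.05, each library left out and, chosen after seeing the data, the 4 libraries rich in other markers left out. Where a count of members under an alternative has no share of all genes beside it, it describes only how the calls moved. The fit was tested on simulated counts with 200 changed genes. Promoter bases are from RefSeq (GRCm38.p6), where 27 of 34 members matched.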

Additional observations from a re-analysis of the deposited data

Results flagged for a closer look

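In 9 of 136 sets of a member in a group of 4 or 5 libraries, 1 library lay far from the rest by Dixon's criterion, which chance alone meets in about 1 in 20 groups. In 5 of the 9 sets this was the first HFD-fed WT eWAT library, as the lowest of its group. It had 132 CPM of Crat (the others 210 to 232), 102 of Echs1 (169 to 185), 127 of Acaa2 (175 to 191), 69.9 of Acaa1b (109 to 124) and 302 of Hsd17b4 (404 to 422). It also had the highest summed macrophage markers of its group, 6864 CPM, and the lowest summed adipocyte markers, 20435 CPM. The eWAT diet and genotype calls of Echs1 and the diet calls of Acaa2 and Acaa1b held without it. The other 4 sets were Cpt1a in the first ND eWAT library (87.6 CPM against 58.9 to 61.2), Acox3 in the second ND eWAT library (180 against 54.6 to 64.7), Scp2 in the fifth Acod1-/- eWAT library (860 against 1115 to 1176) and Etfa in the first HFD-fed WT iWAT library (440 against 504 to 528).

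The diet effect differed between the depots, by the interaction test, for 9 members. That is 27.3% of those tested, against 29.0% of all genes, a share near the background. The eWAT minus iWAT difference in log2 fold change was 0.95 for Acaa2, 0.74 for Hadhb and 0.69 for Acadl. It was -1.14 for Abcd2, -0.85 for Acaa1b, -0.77 for Scp2, -0.75 for Acad11, -0.74 for Hsd17b4 and -0.38 for Eci2. The 3 positive values fell to 0.47, 0.33 and 0.38, in that order, without the third ND iWAT library. The Eci2 call was lost without any of 17 libraries and the Acad11 call without any of 3.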

How the results depend on the processing

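None of the 2552 alternative log2 fold changes of called members changed sign, 383 missed the threshold and 2169 did not. For each call they include the main value judged at an adjusted p under 0.05, which was not recomputed and could not change sign. With the series as a term there were 7 diet calls in eWAT and 6 in iWAT, against 12 each. The eWAT genotype count of 10 was 4 with no filter and 6 at an adjusted p under 0.05. The eWAT count of Acod1-/- against ND-fed WT mice, 12, was 6 with no filter, 2 with the series as a term, 4 without the 4 libraries rich in other markers and 6 at an adjusted p under 0.05. The iWAT genotype count of 0 was 1 by DESeq2's Wald test and 5 in series 1 alone. The depot count in HFD-fed WT mice, 20, was 9 with no filter and 10 at an adjusted p under 0.05. The filter and threshold change how many genes share the adjustment or the limit itself; for the other settings the cause was not tested.

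Leaving out 1 library gave 9 to 14 calls by diet in eWAT, 5 to 14 by genotype in eWAT, 4 to 13 for Acod1-/- against ND in eWAT, 10 to 14 by diet in iWAT, 0 to 4 by genotype in iWAT, 4 to 13 for Acod1-/- against ND in iWAT, 9 to 20 between depots on ND, 5 to 20 between depots on HFD, 7 to 11 for diet by depot and 0 for genotype by depot.

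Samples of the same replicate number deviated together (r over 0.1) in 9 of 13 pairs in eWAT, 4 of 9 in iWAT and 5 of 11 across depots. Samples of different numbers did so in 11 of 52, 8 of 30 and 7 of 41 pairs. The labels do not say whether the number marks a shared animal, and the main fits used no pairing. With the replicate number as a block the counts were 9 and 10 by diet in eWAT and iWAT, 8 and 0 by genotype, 6 and 5 for Acod1-/- against ND, 20 and 21 between depots on ND and HFD, 10 for diet by depot and 0 for genotype by depot. Depth of over 31 M counts leaves Cpt1b alone among the members below the filter.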
